A study of Mus musculus with 6 samples.

Results

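The regions described here are stretches of accessible chromatin that kept a peak through Th17 differentiation of mouse CD4 T cells, lay away from the ends of protein-coding genes, and had a narrower peak at 72 h than in naive cells. Joining all naive, 48 h and 72 h peaks with at least 1 bp in common gave 81315 regions, of which 20812 held a peak in all 3 lists. In 11128 of these the middle lay over 1 kb from both ends of every RefSeq protein-coding gene, and these are called constant distal regions. The 7284 regions whose summed 72 h peak width was below the summed naive width are the members. Another 3813 constant distal regions were wider at 72 h and 31 had equal widths. The members were thus chosen by their measured 72 h and naive widths, so those widths describe the members and are not a finding about them. Beyond the presence of a 48 h peak and the distance to gene ends, the choice did not use 48 h widths, 48 h or 72 h scores, position or sequence.

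The assay was ATAC-seq: the transposase Tn5 cuts open DNA and leaves sequencing adapters at the cut. All cells were CD4+ T cells of wild-type C57BL/6 mice. Naive cells were untreated. Th17 cells were grown from naive cells for 48 h or 72 h with 0.25 µg/mL antibody to CD3ε and 1 µg/mL antibody to CD28, in place of antigen and costimulation, and with 0.1 ng/mL TGF-β and 20 ng/mL IL-6, the cytokines that direct Th17 fate. The design has 2 libraries per condition but 1 peak list per condition was analysed, so no difference between conditions has a replicate check and no p-value is given. Peak names in the lists carry the label WT_Ddx5, and the groups share it.

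Distal accessible regions are often enhancers, stretches of DNA where transcription factors displace nucleosomes and act on genes at a distance. An ATAC-seq peak marks where cuts stand out from the surroundings, and its width reflects both how much DNA is open and how many reads rise above the caller's threshold at its edges. A naive T cell that meets antigen leaves quiescence, enlarges and divides, and under TGF-β and IL-6 it turns on the factors of the Th17 lineage. A narrow peak in these lists therefore means fewer bases past the authors' calling, and whether DNA became less open there was not tested.

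Some members overlap an annotated promoter window, and there the sequence on either side of the 72 h peak edge can be shown. A RefSeq promoter window runs from 250 bases before to 50 bases after a start, and 1019 members (14.0%, exact 95% interval 13.2 to 14.8%) shared bases with one. In 749 of them a window belonged to a protein-coding gene and in 270 to lncRNA genes only. The windows below belong to T cell or growth genes and were picked after their values were seen, because the edge of the 72 h peak falls inside them, in each case upstream of the start. Sequences are from RefSeq, build GRCm38.p6, 5′ to 3′ on the gene's strand, and capitals mark the bases inside the 72 h peak.
Lck, chr4:129558323-129558622, minus strand: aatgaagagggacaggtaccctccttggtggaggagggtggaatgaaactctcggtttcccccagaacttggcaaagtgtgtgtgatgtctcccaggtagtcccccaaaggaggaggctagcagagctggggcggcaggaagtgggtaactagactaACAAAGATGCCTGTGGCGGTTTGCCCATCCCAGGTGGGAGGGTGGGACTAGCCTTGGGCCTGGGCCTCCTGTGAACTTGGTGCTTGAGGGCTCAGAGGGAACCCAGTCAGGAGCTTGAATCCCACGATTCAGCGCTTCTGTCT
Ldha, chr7:46846832-46847131, plus strand: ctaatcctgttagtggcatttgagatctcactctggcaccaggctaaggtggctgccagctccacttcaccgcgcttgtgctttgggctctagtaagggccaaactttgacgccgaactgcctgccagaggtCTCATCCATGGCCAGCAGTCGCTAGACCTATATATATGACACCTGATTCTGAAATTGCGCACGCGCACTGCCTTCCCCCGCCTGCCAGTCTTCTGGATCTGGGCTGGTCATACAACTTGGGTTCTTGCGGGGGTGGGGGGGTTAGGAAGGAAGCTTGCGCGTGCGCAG
Cdk6, chr5:3343643-3343942, plus strand: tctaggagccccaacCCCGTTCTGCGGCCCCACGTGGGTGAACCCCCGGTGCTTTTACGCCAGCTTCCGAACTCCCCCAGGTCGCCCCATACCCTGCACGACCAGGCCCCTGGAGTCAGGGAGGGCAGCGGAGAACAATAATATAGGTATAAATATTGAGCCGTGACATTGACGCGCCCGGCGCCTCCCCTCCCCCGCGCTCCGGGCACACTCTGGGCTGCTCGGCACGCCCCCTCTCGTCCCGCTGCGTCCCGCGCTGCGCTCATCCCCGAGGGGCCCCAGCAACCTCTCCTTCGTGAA
Ccnd3, chr17:47593217-47593516, plus strand: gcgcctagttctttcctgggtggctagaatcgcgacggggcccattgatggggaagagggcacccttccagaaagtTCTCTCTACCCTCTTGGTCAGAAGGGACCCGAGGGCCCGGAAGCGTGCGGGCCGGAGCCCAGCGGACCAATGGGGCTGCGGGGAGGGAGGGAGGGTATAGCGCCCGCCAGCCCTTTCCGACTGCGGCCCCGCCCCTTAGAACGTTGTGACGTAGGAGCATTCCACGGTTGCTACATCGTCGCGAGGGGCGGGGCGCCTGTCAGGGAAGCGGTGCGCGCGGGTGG
Ikzf1, chr11:11689927-11690226, plus strand: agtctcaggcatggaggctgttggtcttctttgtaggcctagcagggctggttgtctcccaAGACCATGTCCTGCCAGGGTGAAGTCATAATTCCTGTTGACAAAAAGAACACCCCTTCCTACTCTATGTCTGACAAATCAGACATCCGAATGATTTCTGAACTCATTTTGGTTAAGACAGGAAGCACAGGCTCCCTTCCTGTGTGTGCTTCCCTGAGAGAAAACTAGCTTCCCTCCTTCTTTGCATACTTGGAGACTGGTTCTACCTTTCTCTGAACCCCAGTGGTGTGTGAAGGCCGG

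Lck encodes the kinase that starts T cell receptor signalling. Its window lies at an internal start of the gene, downstream of the outer start. The naive peak held all 300 bases of the window, the 48 h peak held 296 and the 72 h peak held 143. Only at 72 h did the peak leave out a long stretch of the window, on the side upstream of the start. The lower-case stretch holds 1 match to the ETS letters AGGAAG and 2 matches to the KLF/SP letters GGGCGG or GGGTGG, and the capitals hold 1 further KLF/SP match and the only E-box CANNTG, which reads the same on both strands. Over the whole region, chr4:129558272-129558909, the summed width was 604 bp in naive cells, 583 bp at 48 h and 194 bp at 72 h.

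Ldha encodes lactate dehydrogenase A, the enzyme of glycolytic lactate output, and its printed window is one of 2 in a single region of 1665 bp. The naive peak held 300 bases of that window, the 48 h peaks 180 and the 72 h peaks 168. One naive peak of 1659 bp stood there, against 2 peaks of 610 bp in all at 48 h and 2 of 758 bp in all at 72 h. The upstream window of the same region was held almost whole, with 276 bases in the naive peak, 258 at 48 h and 282 at 72 h. The single naive peak was therefore split in both Th17 lists, with 1 part over each start.

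Cdk6 encodes a kinase that works with D-type cyclins, and Ccnd3 encodes one of those cyclins. In the Cdk6 window the naive peak held 300 bases, the 48 h peak 153 and the 72 h peak 285, so the 48 h peak was the narrower of the Th17 peaks. In the Ccnd3 window the naive peak held 238 bases, the 48 h peak 238 and the 72 h peak 224. Ikzf1 encodes Ikaros, a zinc finger factor of lymphocytes, and its window runs the other way. There the naive peaks held 201 bases, the 48 h peak 216 and the 72 h peak 239, although the whole region narrowed by 37 bp from a naive width of 561 bp. A region that is narrower in sum can thus be wider at one of its edges.

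Among all members, 719 promoter windows lay wholly in naive peaks. Of these, 441 were also wholly in 72 h peaks, 272 were partly in them and 6 were outside. At 48 h the counts were 357 wholly inside, 343 partly inside and 19 outside. The 6 windows outside the 72 h peaks belonged to Nhsl1, a relative of the Nance-Horan syndrome gene, and to the lncRNAs Gm46298 and Gm13657, the last with 4 windows in a single region.

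The bases that dropped out of the peaks differed in composition from those that stayed. Within the windows, 278119 naive-peak bases also lay in a 72 h peak and were 64.2% G or C, and the 47503 that did not were 53.3% G or C. The split at 48 h was alike, with 64.5% for the bases held and 55.8% for those not held. In the wider regions the bases that only the 72 h peaks held were 61.3% G or C, against 65.2% for the bases in both lists. Windows overlap where starts are close, so some bases enter more than once. Members' windows had a median G or C content of 60.67%, against 62.0% in wider regions, 62.67% in constant regions near gene ends and 52.67% over all 32851 RefSeq windows.

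The letters of 13 motifs were looked for in whole windows on both strands, and a match is only a run of letters. TCF/LEF letters, CTTTGA, stood in 13.9% of the 1256 distinct member windows (12.0 to 15.9%), against 9.29% of 560 wider-region windows (7.01 to 12.0%) and 16.0% of all windows. The NFAT letters TGGAAA stood in 17.8% (15.8 to 20.1%), against 12.9% in wider regions (10.2 to 15.9%) and 21.4% of all windows. AP-1 letters, TGANTCA, stood in 5.49% (4.3 to 6.9%), against 7.68% in wider regions (5.61 to 10.2%) and 7.81% of all windows. ETS letters, CGGAAG or AGGAAG, stood in 53.0%, against 52.3% in wider regions and 46.5% of all windows. The RUNX letters TGTGGT stood in 13.5%, against 12.0% in wider regions and 16.8% of all windows. KLF/SP letters, GGGCGG or GGGTGG, stood in 73.3%, against 74.3% in wider regions and 52.7% of all windows. The CTCF core stood in 2.07% (1.36 to 3.02%), against 3.04% in wider regions (1.78 to 4.82%) and 0.557% of all windows. The E-box letters stood in 65.1%, against 61.6% in wider regions and 72.3% of all windows. STAT letters, TTC and GAA with 3 bases of any kind between, stood in 7.01%, against 6.25% in wider regions and 8.3% of all windows. The ROR letters AGGTCA stood in 11.4%, against 13.4% in wider regions and 16.3% of all windows. The letters AGATAA, read by GATA factors, stood in 6.21%, against 5.54% in wider regions and 11.2% of all windows. The FOX letters GTAAACA stood in 3.26%, against 1.96% in wider regions and 3.65% of all windows. IRF letters, GAAA and again GAAA after 2 bases of any kind, stood in 2.23%, against 1.79% in wider regions and 3.44% of all windows. The member and wider shares were within each other's intervals for ETS and RUNX. For TCF/LEF and NFAT the ends of the intervals touched. The part of base composition, which differs between the groups of windows, was not tested. ETS letters also overlap with the NFAT letters, which hold GGAA as well.

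The lists differ as wholes, which bears on every width below. Median peak width was 273 bp over 53259 naive peaks, 234 bp over 40624 peaks at 48 h and 239 bp over 53926 at 72 h. Narrowing was the common state of constant regions: 67.4% of all 20812 had a 72 h width below the naive width, 65.5% of the distal ones (64.6 to 66.3%) and 69.7% of the 9684 near gene ends. When each width was divided by the median of its own list, 51.8% of constant distal regions were narrower at 72 h, and 5761 of the members still were. Read depth is unknown, since the lists hold neither reads nor signal, and its part in the widths was not tested.

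Over the members, the median summed width was 434 bp in naive cells (quartiles 300 and 651), 233 bp at 48 h (158 and 380) and 269 bp at 72 h (178 and 443.2). In wider regions it was 258 bp in naive cells, 286 bp at 48 h and 398 bp at 72 h. Together the members' peaks covered 3.71 Mb in naive cells, 2.22 Mb at 48 h and 2.52 Mb at 72 h, so the 72 h total was 68.1% of the naive total. In regions near gene ends the 72 h total was 89.3% of the naive total. The members had been the wider of the distal regions in naive cells and were the narrower at 72 h, as the rule tends to give.

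**Figure D1:**
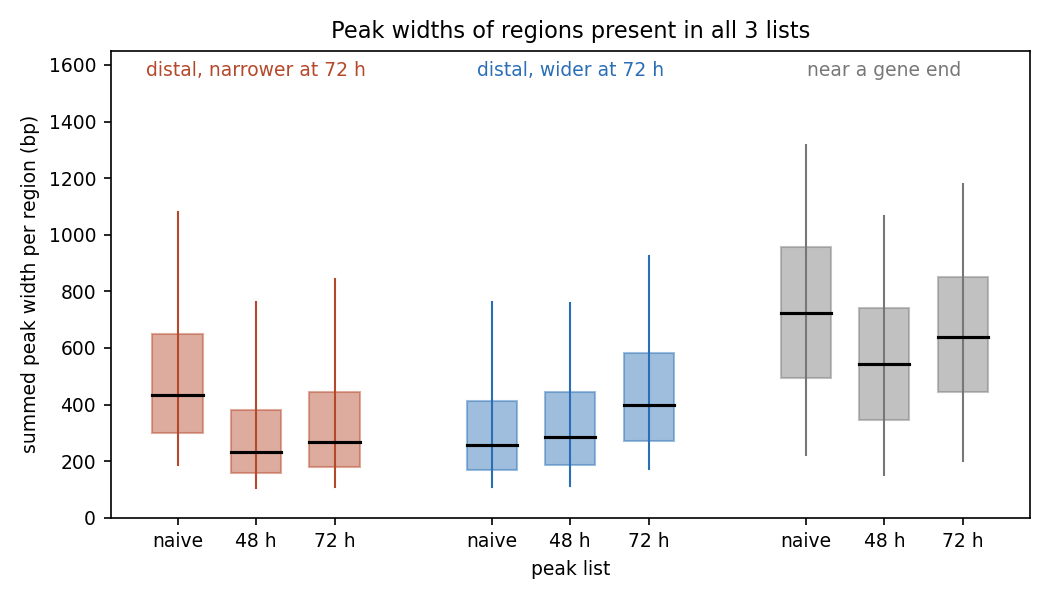
Summed peak width per region in bp (y axis) in the naive, 48 h and 72 h lists (x axis) for the 7284 distal regions narrower at 72 h, the 3813 wider at 72 h and the 9684 near a gene end. Black lines are medians, boxes run from the lower to the upper quartile and lines over the central 90% of regions; the members' median was 434 bp in naive cells, 233 bp at 48 h and 269 bp at 72 h.

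The box plot of widths shows the members' median and quartiles lowest at 48 h. The same was so near gene ends, with medians of 543 bp at 48 h and 640.5 bp at 72 h, whereas wider regions were lowest in naive cells. How far the members narrowed spanned a wide range. The median 72 h width was 0.7059 of the naive width (quartiles 0.5363 and 0.8532), a median difference of 121 bp. In 386 members (5.3%) the difference was at most 10 bp, and in 1223 (16.8%) the 72 h width was at least 90% of the naive width. At the other end 1516 (20.8%) were at 50% or less and 179 (2.46%) at 25% or less. A 72 h width below the naive width by at least 1.5 fold was found in 3188 members (43.8%), and in 22.0% of all constant regions. At the boundary of the rule, 51 members differed by 1 bp, 31 regions outside it had equal widths and 22 were 1 bp wider at 72 h.

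Members with and without a promoter window differed in size and in extent of narrowing. Those with a window had a median width of 752 bp in naive cells, 492 bp at 48 h and 554 bp at 72 h, and a median ratio of 72 h to naive width of 0.798. Those without had 405 bp in naive cells, 215 bp at 48 h and 245 bp at 72 h, and a median ratio of 0.6888. Their median 48 h scores, the authors' own value per peak, were 111 with a window and 67 without.

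**Figure D2:**
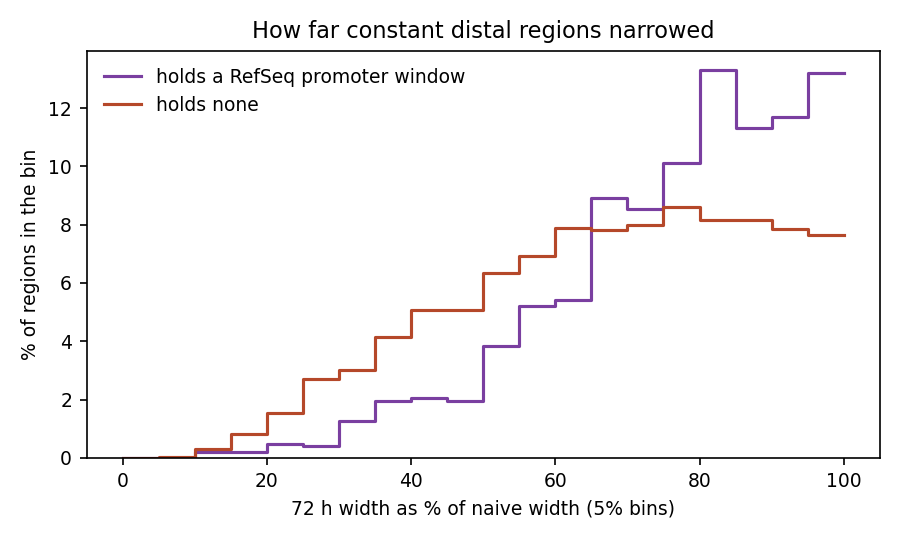
Share of members (y axis, %) by the 72 h width as a percentage of the naive width (x axis, 5% bins), for the 1019 members that hold a RefSeq promoter window and the 6265 that hold none. The members without a window reach further to the left, with a median ratio of 0.6888 against 0.798.

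The 48 h list played no part in the width rule, and there most members were already narrow. In 6709 members (92.1%, 91.5 to 92.7%) the 48 h width was below the naive width, against 1748 of the wider regions (45.8%, 44.3 to 47.4%), 8037 of the regions near gene ends (83.0%, 82.2 to 83.7%) and 79.4% of all constant regions. The same naive widths enter both the rule and this comparison, so part of the gap follows from the choice. In 4515 members (62.0%) the 48 h width was at or below the 72 h width and both were below the naive width. In 2194 (30.1%) the 48 h width lay between them, and in 575 (7.89%) it was at or above the naive width. The narrowest peak of a member was thus more often the 48 h one than the 72 h one. This was not particular to members. The 48 h width was below the 72 h width in 61.4% of members, 80.6% of wider regions and 74.1% of regions near gene ends. Members and wider regions were chosen by 72 h width, so part of the difference between them follows from the choice. The 48 h list as a whole also had the fewest peaks.

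The same shares were taken within classes of naive width. Constant distal regions were split by naive width into 4 classes of about equal size, up to 242 bp, 243 to 375 bp, 376 to 579 bp and 580 bp or more. The 48 h width was below the naive width in 75.4% of members against 30.5% of wider regions in the narrowest class, in 91.6% against 50.6% in the next, and in 97.3% against 71.7% in the widest. The median 48 h width in the narrowest class was 148 bp in members against 206 bp in wider regions. Naive widths still vary within a class, most of all in the widest, so part of these gaps also follows from the choice. The share of regions that are members itself ran with naive width, from the narrowest to the widest class 37.2%, 65.5%, 75.4% and 84.0%.

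**Figure D3:**
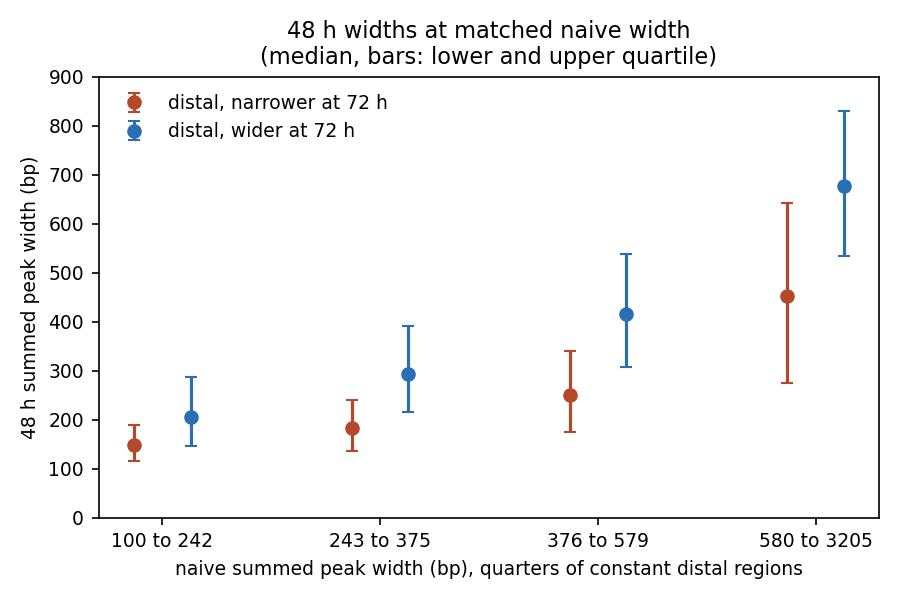
Summed 48 h peak width in bp (y axis; points are medians, bars run from the lower to the upper quartile) for distal regions narrower and wider at 72 h, in 4 classes of naive width (x axis, bp). In each class the members' median lies below that of the wider regions, 148 bp against 206 bp in the narrowest class.

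Scores were lower in members than in wider regions. The median 48 h score was 71 (70 to 72) in members, 79 (77 to 81) in wider regions and 127 (125 to 129) in regions near gene ends. At 72 h the medians were 92 in members, 112 in wider regions and 184 near gene ends. The 72 h scores come from the same list as the 72 h widths of the rule. Part of the 72 h gap between members and wider regions can therefore follow from the choice. Within each class of naive width the members' median 48 h score was also the lower, 55 against 64 in the narrowest and 98 against 132 in the widest. The naive list holds no score, and scores of different lists were not compared.

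In 6252 members (85.8%) there was exactly 1 peak in each list, and for these the edges could be followed. The 72 h peak lay inside the naive peak in 4175 (66.8%) and covered the centre of the naive peak in 5493 (87.9%). Only a narrower peak can lie inside, so the rule favours the first share. The naive centre was covered more often elsewhere, in 97.6% of wider regions and 97.2% near gene ends with 1 peak in each list. Both edges were at least 10 bp inward in 3418 (54.7%). In 1977 (31.6%) 1 edge was within 10 bp of the naive edge or beyond it and the other was over 50 bp inward. That held for 14.6% of wider regions and 27.9% near gene ends. Of the pair of edges of a peak, the one that moved less was inward by a median of 14 bp and the one that moved more by 96 bp. Any pair of edges has a smaller and a larger step, so these medians do not by themselves show lopsided narrowing. By the limits above, narrowing lay mainly on 1 side in the 31.6%. The median shift of the centre was 38 bp, against 45 bp in wider regions and 41.5 bp near gene ends, so members were not shifted more than these.

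**Figure D4:**
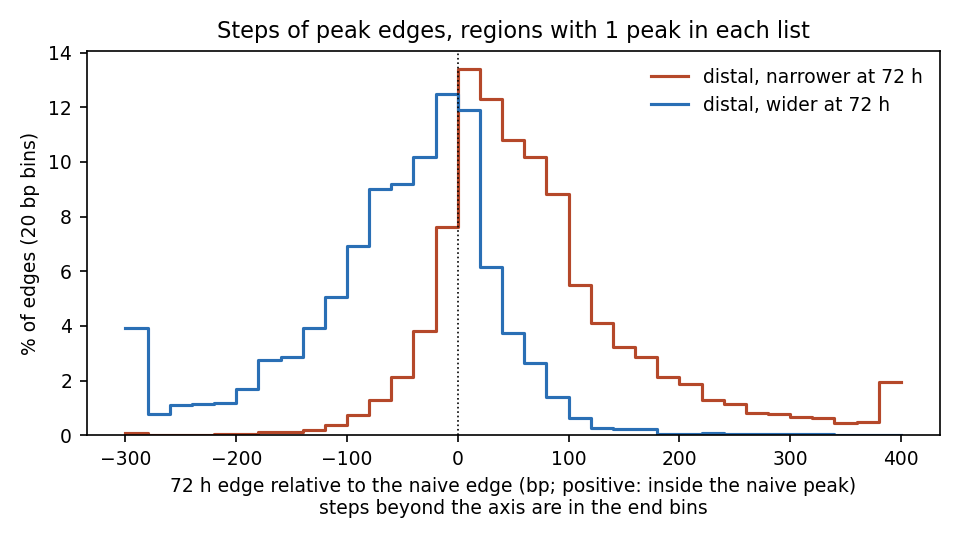
Position of the 72 h peak edge relative to the naive edge in bp (x axis; positive values lie inside the naive peak, steps beyond the axis are gathered in the end bins) as a percentage of edges (y axis, 20 bp bins), for regions with 1 peak in each list. The members' edges, 6252 left and as many right, lie mostly right of 0, with medians of 53 bp for left and 55 bp for right edges, and the wider regions' edges lie mostly left of 0.

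Left and right edges of members had like medians, 53 bp and 55 bp inward. The plot of edge steps pools the sides. The remaining peak lay at nearly the same place in both Th17 lists. In 6065 of the 6252 (97.0%) the 48 h and 72 h peaks shared at least 50% of the narrower of them. This share was no higher than elsewhere, with 98.9% in wider regions and 99.1% near gene ends. In 4619 of the members' 6252 (73.9%) the 48 h and 72 h centres lay on the same side of the naive centre. The same was so in 69.1% of wider regions (67.5 to 70.7%) and 69.0% of regions near gene ends (67.9 to 70.1%). All of these centre comparisons share the naive centre.

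Other members were split. In 516 (7.08%, 6.51 to 7.7%) 1 naive peak faced 2 or more 72 h peaks, against 109 of the wider regions (2.86%, 2.35 to 3.44%). Near gene ends the share was higher than in members, 814 of 9684 (8.41%, 7.86 to 8.98%). The opposite, 2 or more naive peaks facing 1 at 72 h, was found in 112 members (1.54%) and 218 wider regions (5.72%). Near gene ends it was found in 649 regions (6.7%). A gap between peaks takes bases off the summed width, so the rule favours split peaks among members. At 48 h, whose widths the rule did not use, 8.64% of members (8.0 to 9.3%) held 2 or more peaks. The wider regions had a like share, 8.89% (8.01 to 9.84%), and regions near gene ends a higher one. Split peaks were thus not particular to members.

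By position the members resembled the wider regions. The middle lay inside a protein-coding gene in 4116 members (56.5%, 55.4 to 57.6%), against 56.2% of wider regions (54.6 to 57.8%). It lay outside these and inside a lncRNA gene in 743 of the 7284 members against 383 of the 3813 wider regions, and outside both in 33.3% against 33.8%. The table used gives no exons, so exonic and intronic members were not told apart. In 2022 members (27.8%) the nearest protein-coding gene body was over 10 kb away, and in 290 (3.98%) over 100 kb. Naive-only regions, present in the naive list alone, lay within 10 kb of 48.3% of members and 46.9% of wider regions, with overlapping intervals. Regions with peaks in both Th17 lists and no naive peak lay within 10 kb of 19.2% of members (18.3 to 20.1%) and of 22.2% of wider regions (20.9 to 23.5%). Where another constant distal region lay within 10 kb, the nearest was itself narrower in 63.2% of cases for members and in 61.7% for wider regions, both close to the 65.5% of all constant distal regions.

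The share of constant distal regions that are members was 57.3 to 72.1% on the chromosomes 1 to 19 and 75.8% on the X chromosome (166 of 219, 69.6 to 81.3%). Among constant X-linked regions near gene ends, 78.0% were narrower at 72 h, against 69.5% on chromosomes 1 to 19. The lowest distal share was that of chromosome 11, with 57.3%.

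The members with the largest differences in bp were broad naive peaks with a small remnant. At chr17:21616502-21617908, 27178 bp from the zinc finger gene Zfp948, the naive peak was 1407 bp wide, 2 peaks at 48 h summed to 290 bp and the 72 h peak was 100 bp, the narrowest width in the lists. Inside Arpp21, which encodes a cAMP-regulated phosphoprotein, chr9:112174418-112175618 had 1201 bp in naive cells, 111 bp at 48 h and 205 bp at 72 h. Inside Itpk1, an inositol phosphate kinase gene, chr12:102651535-102652867 had 1333 bp in naive cells, 164 bp at 48 h and 347 bp at 72 h. Inside Ext1, which encodes a heparan sulfate polymerase, chr15:53266770-53267959 had 1190 bp in naive cells, 108 bp at 48 h and 225 bp at 72 h. All of the 10 members with the largest differences, 931 to 1307 bp, were also at least 1.5 fold below the naive width at 48 h. Of all members 58.5% were. A large naive width favours both the choice of the 10 and this comparison, so part of this follows from the choice. In 8 of the 10 the 48 h width was the narrowest of the lists, as it was in 61.4% of all members. Their 48 h scores ran from 31 to 197.

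The members with the highest 48 h scores were of the opposite kind, with nearly the same width in every list. Their 48 h scores ran from 420 to 1260, and 9 of the 10 differed between naive and 72 h by at most 15 bp. At chr1:24612669-24612833, 24747 bp from the collagen gene Col19a1, the width was 163 bp in naive cells, 162 bp at 48 h and 150 bp at 72 h, with a 48 h score of 1260. At chr2:98666238-98667338, over 1 Mb from the nearest protein-coding gene Lrrc4c, it was 1099 bp in naive cells, 1090 bp at 48 h and 1098 bp at 72 h. The exception was chr2:181917430-181917930, with 489 bp in naive cells, 418 bp at 48 h and 309 bp at 72 h. These 9 entered the members on a few bases. Peaks were not filtered here for repeats or mappability, and whether the high scores mark such sites was not tested.

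A region was counted for every protein-coding gene whose body, widened by 10 kb on either side, it overlapped. On that count 4656 genes had at least 1 member and 74 had 5 or more. Pde4d, which encodes a phosphodiesterase that breaks down cAMP, had the most, 13 members against 3 wider regions. Its members' summed widths were 7514 bp in naive cells, 3777 bp at 48 h and 4120 bp at 72 h. The 48 h width was below the naive width in 13 of 13, against 92.1% of all members. The strongest case at Pde4d was chr13:109837418-109838323, with 906 bp in naive cells, 147 bp at 48 h and 121 bp at 72 h. The weakest was chr13:109822182-109822865, with 654 bp in naive cells, 589 bp at 48 h and 583 bp at 72 h. Long genes hold more regions, so these counts rank loci and not genes per length.

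Bach2 and Foxp1, which encode transcription factors that hold T cells in a quiescent or less differentiated state, had 11 members each, with 4 wider regions at Bach2 and 8 at Foxp1. The Bach2 members summed to 4774 bp in naive cells, 3223 bp at 48 h and 3217 bp at 72 h, with 8 of 11 below the naive width at 48 h. The most reduced of them, chr4:32560317-32560754, had 438 bp in naive cells, 124 bp at 48 h and 100 bp at 72 h. The Foxp1 members summed to 4766 bp in naive cells, 3857 bp at 48 h and 3599 bp at 72 h, with 6 of 11 below the naive width at 48 h. One of the other 5, chr6:99283198-99283689, had 469 bp in naive cells, 492 bp at 48 h and 211 bp at 72 h. At Foxp1 5 of 11 members were thus below the naive width in the 72 h list only, and at Pde4d 0 of 13 were, against 7.89% of all members. The remaining Foxp1 cases had 48 h and naive widths of 255 and 254 bp, 283 and 274 bp, 278 and 267 bp, and 574 and 501 bp. The Foxp1 count therefore rests partly on a few bases.

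**Figure D5:**
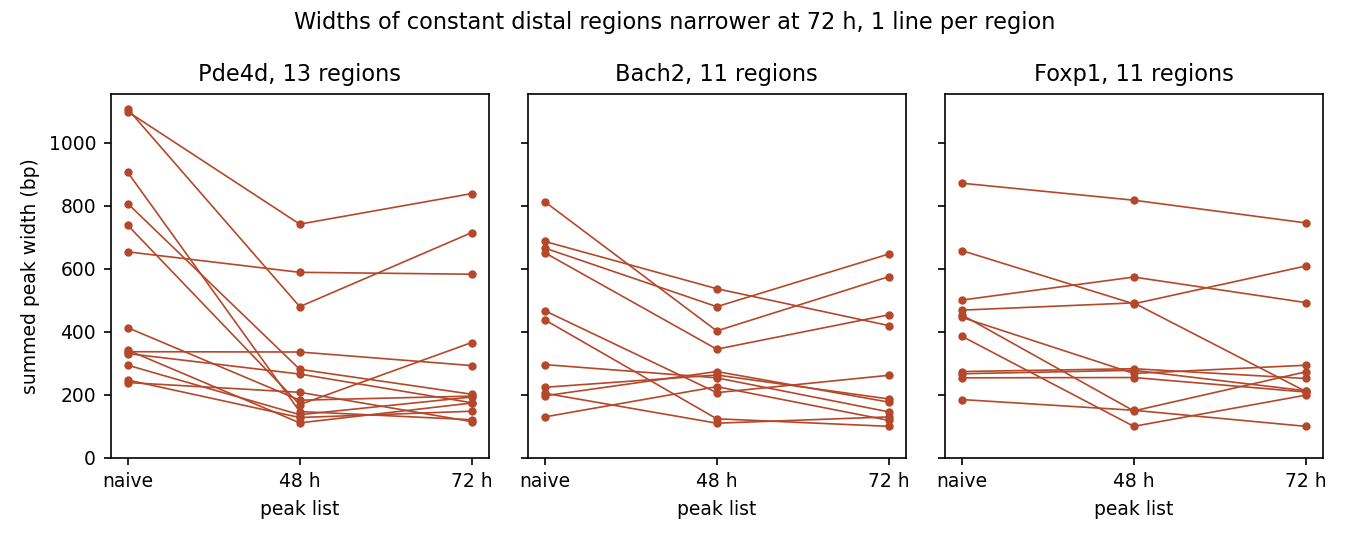
Summed peak width in bp (y axis) in the naive, 48 h and 72 h lists (x axis) for each member at Pde4d (13 regions), Bach2 (11) and Foxp1 (11), 1 line per region. All 13 Pde4d lines lie lower at 48 h than in naive cells, against 8 of 11 at Bach2 and 6 of 11 at Foxp1.

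The plot of the 3 loci shows these differences region by region. The other genes with most members were Prkch, a protein kinase C gene, with 9 members and 4 wider regions, Ubac2, whose product sits in the endoplasmic reticulum, with 9 and 1, and Maml3, a Notch coactivator gene, with 8 and 1. Tex14, known from germ cell bridges, had 8 and 2, Rgs3, a regulator of G protein signalling, 7 and 2, Wwox, an oxidoreductase gene, 7 and 3, and Ahnak, which encodes a large scaffold protein, 6 and 0. The Wwox members narrowed most, to a median of 41.5% of the naive width, with 2917 bp in naive cells, 1541 bp at 48 h and 1430 bp at 72 h. The Tex14 members narrowed least, to a median of 88.3%, and in 3 of 8 the 48 h width was below the naive width. There were 23 genes with 5 or more members and no distal region that was wider or equal, among them Ahnak and Jak1.

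The gene lists used to sort loci by role held few constant distal regions each, and every list but the Th1 and Th2 genes had an interval that held the 65.5% of all constant distal regions. The list of naive and quiescent state genes had 36 members and 21 wider regions (63.2%, 49.3 to 75.6%). T cell activation genes had 25 and 13 (65.8%, 48.6 to 80.4%), pan T cell genes 19 and 10 (65.5%, 45.7 to 82.1%) and growth and proliferation genes 14 and 7 (66.7%, 43.0 to 85.4%). BATF, IRF and AP-1 factors had 11 and 6 (64.7%), and RUNX and ETS factors 19 and 15 (55.9%). The highest share was that of the Th17 lineage genes, 8 and 3 (72.7%, 39.0 to 94.0%), and the lowest that of the Th1 and Th2 genes, 5 and 9 (35.7%, 12.8 to 64.9%), whose interval ends below 65.5%. Housekeeping genes had 37.5%, with an interval (8.52 to 75.5%) that holds 65.5%. With widths over the list median the Th1 and Th2 share was 28.6% (8.39 to 58.1%). That interval holds the 51.8% of all constant distal regions in the same setting. With 50 kb on each side of the genes the shares were 58.6% for the Th17 list (38.9 to 76.5%) and 59.4% for the Th1 and Th2 list (40.6 to 76.3%). These are descriptions of 14 lists.

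Among genes of the naive state, Ikzf1 and Lef1 had 3 members each, with 0 and 1 wider regions. Lef1 encodes a factor that works with TCF1 to hold naive T cell identity. Its members summed to 1630 bp in naive cells, 1345 bp at 48 h and 1479 bp at 72 h. The longest, chr3:131207850-131209204, had 1192 bp in naive cells, 996 bp at 48 h and 1140 bp at 72 h. The Lef1 members were thus among the less narrowed, with a median of 85.1% of the naive width.

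Of the 17 Th17 lineage genes, 4 had members: Rora, Stat3, Hif1a and Il23r. Of all 21900 protein-coding genes 4656 had, a like share. Il17a and Il17f, the genes of the signature cytokines, had none. They had no wider or equal region either, so no constant distal region there could be a member. In all 8 members the 48 h width was below the naive width, against 92.1% of all members in the series. Rora, a nuclear receptor gene of Th17 cells, had 4 members and 2 wider regions, and chr9:69125370-69126115 there had 696 bp in naive cells, 100 bp at 48 h and 260 bp at 72 h. Stat3 encodes the factor that IL-6 activates, and its member at chr11:100931505-100931998 had 494 bp in naive cells, 150 bp at 48 h and 121 bp at 72 h. Il23r encodes the receptor for the cytokine that maintains Th17 cells, and its member, outside the gene body, had 585 bp in naive cells, 432 bp at 48 h and 361 bp at 72 h. The member at Hif1a, which encodes a factor of glycolysis, hardly narrowed, with 747 bp in naive cells, 686 bp at 48 h and 714 bp at 72 h. The members at Th17 loci thus ranged from hardly to strongly narrowed. Members at large did so too, with 43.8% of all at least 1.5 fold below the naive width at 72 h. These widths chose the members, so the range describes the Th17 loci and does not set them apart.

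In the IL-6 pathway, with 10 members and 8 wider regions (55.6%), Jak1, the kinase gene at the head of IL-6 receptor signalling, had 5 members and 0 wider regions, 1 of the members lying inside the neighbouring gene Raver2. The Jak1 members summed to 1714 bp in naive cells, 1007 bp at 48 h and 1231 bp at 72 h, with 5 of 5 below the naive width at 48 h. Il6ra, the receptor chain that binds IL-6, had 1 member of 385 bp in naive cells, 159 bp at 48 h and 247 bp at 72 h. Cish, a cytokine-induced inhibitor of signalling, had 1 of 787 bp in naive cells, 749 bp at 48 h and 557 bp at 72 h. Jak2 and Socs3, a kinase gene and a feedback inhibitor gene, had 0 members and 2 wider regions each. The pathway was therefore mixed by gene. All 10 of its members were below the naive width at 48 h, but so were 92.1% of all members, so this does not set the pathway apart.

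In the TGF-β and regulatory T cell list, with 8 members, 7 wider regions and 1 equal, Ski, a repressor of SMAD signalling, had 3 members and 0 wider regions. Ikzf2 and Ikzf4, the genes of Helios and Eos, and Nrp1, a surface receptor gene of regulatory T cells, had 1 member each, with 0 wider regions at Ikzf2 and Nrp1 and 2 at Ikzf4. The Nrp1 member had 189 bp in naive cells, 112 bp at 48 h and 100 bp at 72 h, whereas that of Ikzf2 had 197 bp in naive cells, 100 bp at 48 h and 185 bp at 72 h. Smad3 and Tgfbr2 had 0 members and 2 wider regions each.

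Among activation genes, Cd69, an early activation marker, had 2 members and 0 wider regions. The one in the gene, chr6:129273592-129274116, had 525 bp in naive cells, 160 bp at 48 h and 196 bp at 72 h. The one upstream, chr6:129284258-129285165, had 812 bp in naive cells, 908 bp at 48 h and 644 bp at 72 h, so that the neighbours moved in opposite directions at 48 h. Il2ra, the high-affinity chain of the IL-2 receptor, had 3 members and 1 wider region, and the narrowest, chr2:11664050-11664303, had 254 bp in naive cells, 106 bp at 48 h and 100 bp at 72 h. Nfkb1 had 3 members and 2 wider regions, with 1488 bp in naive cells, 781 bp at 48 h and 1243 bp at 72 h in sum, and Nfatc1 had 4 members and 1 wider region. These encode NF-κB and NFAT factors of antigen receptor signalling.

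Of the AP-1 factors, Jun had 2 members and 0 wider regions, and Batf and Fosb had 2 members and 1 wider region each. At Batf, a factor that opens chromatin with IRF4 in Th17 cells, chr12:85705089-85706206 had 1116 bp in naive cells, 788 bp at 48 h and 800 bp at 72 h, the last in 2 peaks. At Jun, chr4:95050422-95050907 inside the gene had 486 bp in naive cells, 162 bp at 48 h and 182 bp at 72 h. The Fos member had 593 bp in naive cells, 397 bp at 48 h and 566 bp at 72 h, so its 48 h peak was the narrow one. Runx1, a factor of T cell development, had 4 members and 4 wider regions, and the ETS family genes Elf1 and Etv6 had 3 members and 2 wider regions each, against 3 and 0 for Elk3.

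At the genes of other helper fates, Gata3, the Th2 master regulator, had 2 members and 0 wider regions, Il4ra had 2 and 2, and Stat4, which carries IL-12 signals, had 1 and 2. The Stat4 member, chr1:52100447-52101088, was one of the most reduced of the named members, with 642 bp in naive cells, 145 bp at 48 h and 152 bp at 72 h. The Gata3 members summed to 1031 bp in naive cells, 708 bp at 48 h and 847 bp at 72 h.

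Genes that all T cells use also had members, and the label of CD4 T cells was checked at them. All 16 pan T cell genes had a peak within 1 kb of an end in each list, whereas the B cell genes Ms4a1 and Pax5, the myeloid genes Csf1r and Lyz2 and the CD8 gene Cd8a had none in any. Cd8b1, the gene of the other CD8 chain, had one in every list, and Gzmb and Nkg7, genes of cytotoxic cells, had one in both Th17 lists and none in the naive list. Ptprc, the CD45 gene, had 4 members and 1 wider region, with 1500 bp in naive cells, 1101 bp at 48 h and 1037 bp at 72 h in sum. Bcl11b, a T lineage factor gene, had 2 members and 3 wider regions. The second Lck member, chr4:129575124-129575724, lies beyond the gene's outer start, and had 583 bp in naive cells, 347 bp at 48 h and 418 bp at 72 h. Of the growth genes, Ccnd3 had 4 members and 1 wider region, with 2247 bp in naive cells, 1462 bp at 48 h and 1380 bp at 72 h in sum, and Cdk6 had 3 and 1, with 1320 bp in naive cells, 525 bp at 48 h and 746 bp at 72 h. The 12 housekeeping genes had 3 members and 5 wider regions. Each of the 3 marker lists of other blood cells (B, myeloid, CD8 T or NK) had 2 members and 1 wider region. Among their genes, 3 of 8 B cell, 5 of 8 myeloid and 3 of 8 CD8 T or NK markers had a naive peak within 1 kb of an end, against 1, 4 and 5 of 8 at 48 h and 2, 4 and 5 of 8 at 72 h. Their part in the members' widths was not tested.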

How the data were processed

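The 3 peak lists, 1 per condition, hold chromosome, start, end and peak name per peak. The authors also deposited a whole-number score per peak for 48 h and 72 h, from 30 upward, on a scale no header states. Tools named in the submitters' processing notes were MACS2 2.2.6, Bowtie2 2.3.4.1, SAMtools 1.9 and deepTools, with build GRCm38 or mm10. Not given in the sources used here are the calling threshold, duplicate handling, Tn5 shift, and whether a list comes from 1 library or both. Library fragments of short length were kept, per the labels' protocols, and what this does to peak widths was not tested.

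Peaks sharing at least 1 bp were merged, peak widths summed per region and list, and distances taken to the ends of 21900 protein-coding genes of RefSeq GRCm38.p6 (Python 3.11.15, pandas 2.3.3, SciPy 1.17.1). That table has no strand or exons. An empty line of the naive list, 1 in all, was skipped. Coordinates are 1-based. Shares have exact Clopper-Pearson 95% intervals and medians order-statistic intervals, both for counting error only, since neighbouring regions are not independent samples. The merging was tested on simulated data. Named genes are the 10 with most members and up to 4 per list with most members; named regions are the 10 with the largest difference and the 10 with the highest 48 h score. Genes with 0 members, marker genes named by their peaks and the printed promoter windows were chosen after their values were seen. Members, lists and rules were chosen with earlier results of these data known. No genome sequence was used, so motifs over whole regions were not analysed here.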

Additional observations from a re-analysis of the deposited data

How the results depend on the processing

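With 1 list per condition, no test and no leave-one-out was run. No paired analysis was possible because each condition has a single list. Motif alternatives over whole regions were not run. Depth is unknown, so widths and scores were not set against it. Against 7284 members and 65.5% of constant distal regions, using 48 h and 72 h peaks with a score at or above their list's median left 3192 members (61.0%), and a 1.5-fold limit left 3188 (28.6%). The share was 67.0% with the widest peaks of each list in equal numbers, 51.8% with widths over the list median and 51.9% with widths set to the naive quantile. The share of members below the naive width at 48 h, 92.1%, was 93.3% with the widest peaks, 87.1% with widths over the list median, 96.7% with the 1.5-fold limit and 91.4% with exactly 1 peak in each list. The median 48 h and 72 h scores, 71 and 92, were 78 and 106 with the widest peaks, 68 and 86 with widths over the list median, 61 and 72 with the 1.5-fold limit, 69 and 88 with exactly 1 peak in each list, and 67 and 86 without regions holding a promoter window, an alternative chosen after seeing the data. The share inside protein-coding genes, 56.5%, was 53.1% with a 5 kb distal limit, 54.9% with the 1.5-fold limit and 52.8% without promoter windows. The cause of these shifts was not tested. The other 22 values of these measures moved by less than their intervals or, for counts, by under 1.5 times. Per gene list 27 values moved and 43 did not, and most shifts came from counting regions within 50 kb of genes or in the body alone.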
